A study of Mus musculus with 2 samples.

Results

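The genes examined were 10 cytochrome P450 genes of the Cyp2c subfamily that are transcribed in mouse liver, namely Cyp2c29, Cyp2c37, Cyp2c38, Cyp2c39, Cyp2c40, Cyp2c50, Cyp2c54, Cyp2c67, Cyp2c68 and Cyp2c70. They were taken by gene symbol from the 43280 genes in the count tables and all 10 were found. The tables came from 1 library of small hepatocytes (SHs) and 1 library of mature hepatocytes (MHs), both freshly prepared by collagenase perfusion from the livers of healthy C57BL6 mice. The labels give an age of 20 weeks, which is older than the age stated in the methods of the study, and say that both cell types were taken from the same animals, of which the methods name several without saying whether their cells were pooled. MHs were hepatocytes pelleted by a slow spin, from which a Percoll gradient had removed the dead cells, without a sort. SHs came from the supernatant of that spin, were pelleted at a higher force and also passed a Percoll step. They were then sorted by FACS as CD31-, CD45- and EpCAM-negative cells that carried ICAM-1. Since each group was 1 library, no test between SHs and MHs could be made, and the comparison is between these libraries.

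P450 enzymes are heme proteins of the endoplasmic reticulum that insert an oxygen atom into their substrates with electrons handed over by P450 oxidoreductase and cytochrome b5. Enzymes of the Cyp2c subfamily oxidise arachidonic acid to epoxides and hydroxy acids and also act on drugs, steroids and retinoids, and mouse Cyp2c70 is set apart by its substrate, since it hydroxylates bile acids to make muricholic acids. Transcription of Cyp2c genes in hepatocytes is known to respond to the nuclear receptors CAR and PXR and to depend on liver transcription factors such as HNF4α. Many P450 genes of the liver are most active in hepatocytes around the central vein.

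The Cyp2c genes lie side by side on mouse chromosome 19, where annotated genes and pseudogenes of the subfamily span 1211 kb, from 38976647 to 40187333 of mm10 (GENCODE M21). Cyp2c29 (ENSMUSG00000003053.17) is annotated at chr19:39269405-39330713 on the plus strand and Cyp2c70 (ENSMUSG00000060613.10) at chr19:40153353-40187333 on the minus strand, at the far end of the cluster. Between them lie Cyp2c38 (39389556 to 39463075), Cyp2c39 (39510862 to 39568529), Cyp2c67 (39608842 to 39649051), Cyp2c68 (39688834 to 39741054), Cyp2c40 (39767071 to 39812814), Cyp2c37 (39992424 to 40012243), Cyp2c54 (40037940 to 40073827) and Cyp2c50 (40089688 to 40113950). The locus of Cyp2c29 overlaps that of the pseudogene Cyp2c53-ps on the same strand, so reads in the shared stretch cannot be assigned to either. The pseudogene was counted with 13 reads in MHs and 14 in SHs, few beside the 8631 and 7131 reads of Cyp2c29.

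The 10 genes are tandem copies of different closeness, which shows in their promoters as in their transcripts. The 150 bases before the gene start are shown for 6 of them, because these stretches carry the letters that the genes share and those in which they differ. They were taken from RefSeq (GRCm38.p6) and are written along the strand of the gene. For Cyp2c29 the RefSeq start lies inside the GENCODE locus, which begins farther upstream. Capitals mark CAAAGTNNA, a form of the letters that HNF4α is known to bind, and TATAAA, the TATA box, on either strand.
Cyp2c29, chr19:39286935-39287084, plus strand: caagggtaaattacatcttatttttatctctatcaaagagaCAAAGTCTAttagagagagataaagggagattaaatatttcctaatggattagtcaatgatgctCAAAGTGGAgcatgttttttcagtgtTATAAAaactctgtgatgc
Cyp2c38, chr19:39463076-39463225, minus strand: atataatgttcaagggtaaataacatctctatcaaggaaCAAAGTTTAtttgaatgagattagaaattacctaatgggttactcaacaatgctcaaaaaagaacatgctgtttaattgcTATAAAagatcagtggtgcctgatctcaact
Cyp2c37, chr19:39992274-39992423, plus strand: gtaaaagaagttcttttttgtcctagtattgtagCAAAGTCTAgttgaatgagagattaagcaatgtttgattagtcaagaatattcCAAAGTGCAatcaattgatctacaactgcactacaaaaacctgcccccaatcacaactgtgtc
Cyp2c50, chr19:40089529-40089678, plus strand: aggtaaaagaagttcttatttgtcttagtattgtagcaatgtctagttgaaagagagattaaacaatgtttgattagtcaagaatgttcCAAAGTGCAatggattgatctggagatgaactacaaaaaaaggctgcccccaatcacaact
Cyp2c67, chr19:39649043-39649192, minus strand: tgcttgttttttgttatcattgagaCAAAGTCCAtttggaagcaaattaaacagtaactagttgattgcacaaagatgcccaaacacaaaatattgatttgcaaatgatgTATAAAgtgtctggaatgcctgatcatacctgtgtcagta
Cyp2c70, chr19:40187287-40187436, minus strand: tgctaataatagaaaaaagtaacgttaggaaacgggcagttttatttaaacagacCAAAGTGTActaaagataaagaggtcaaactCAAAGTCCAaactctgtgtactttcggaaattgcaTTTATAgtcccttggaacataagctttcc

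The letters CAAAGTNNA were found in the promoters of 9 genes, which are all those with a RefSeq promoter entry in the table. Cyp2c54 had none. A window of 250 bases before to 50 after the gene start was searched on both strands, and 4.21% of all 32851 mouse promoters of this length held these letters. The closer HNF4-type form CAAAGTCCA, a special case of the first, stood in 0.475% of the promoters and in those of Cyp2c67, Cyp2c68, Cyp2c40 and Cyp2c70. Among the other 5 genes, CAAAGTCTA was found in Cyp2c29, Cyp2c37 and Cyp2c39 and CAAAGTTTA in Cyp2c38. CAAAGTGCA was found in both Cyp2c37 and Cyp2c50, beginning 63 and 61 bases before the start, and was the one match in Cyp2c50. The paired promoters were near copies of each other, with 90.1% identity between Cyp2c37 and Cyp2c50, 91.6% between Cyp2c67 and Cyp2c68 and 81.3% between Cyp2c29 and Cyp2c38. TATAAA was present in 6 of the 9 genes and in 13.6% of all promoters. Its place depended on the annotated start, which lay differently in close copies: TATAAA began 40 bases before the start in Cyp2c67 and 40 bases after it in Cyp2c40. Direct repeats of AGGTCA spaced by 4 bases, an arrangement to which CAR and PXR bind, were absent from the windows of the 9 genes. As only 0.0152% of all promoters held them, this absence carries no information about the 9 genes. The matches given are of letters and are not measured binding sites.

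The transcripts of the 10 genes fell into 3 groups of paralogs, formed where 2 transcripts were at least 85% identical, and Cyp2c70. Cyp2c29, Cyp2c38 and Cyp2c39 were 87.9% to 93.8% identical to each other, and Cyp2c37, Cyp2c50 and Cyp2c54 were 94.8% to 95.8% identical. Cyp2c67, Cyp2c68 and Cyp2c40, with Cyp2c69, which is not among the 10 genes, were 96.4% to 98% identical. Cyp2c70 was no more than 70% identical to any other Cyp2c transcript. The similarity decides how far reads can be assigned to single genes. No stretch of 100 bases of the Cyp2c29 or Cyp2c70 transcripts came within 2 mismatches of another Cyp2c transcript, whereas such stretches made up 89.5% of the Cyp2c40 transcript, 77.2% of Cyp2c67, 73.4% of Cyp2c68, 39.5% of Cyp2c37, 38.3% of Cyp2c50 and 26.3% of Cyp2c54. For Cyp2c38 and Cyp2c39 the shares were 8.34% and 13.4%. The pseudogene Cyp2c53-ps was not part of the comparison within 2 mismatches. Exact stretches of 100 bases were sought in the transcripts of all other genes, and none was found for Cyp2c29 or Cyp2c70. Values of Cyp2c29 and Cyp2c70 can therefore be read gene by gene. Those of Cyp2c67, Cyp2c68 and Cyp2c40 depend on how the counting dealt with shared reads and are firmer as a sum.

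**Figure D1:**
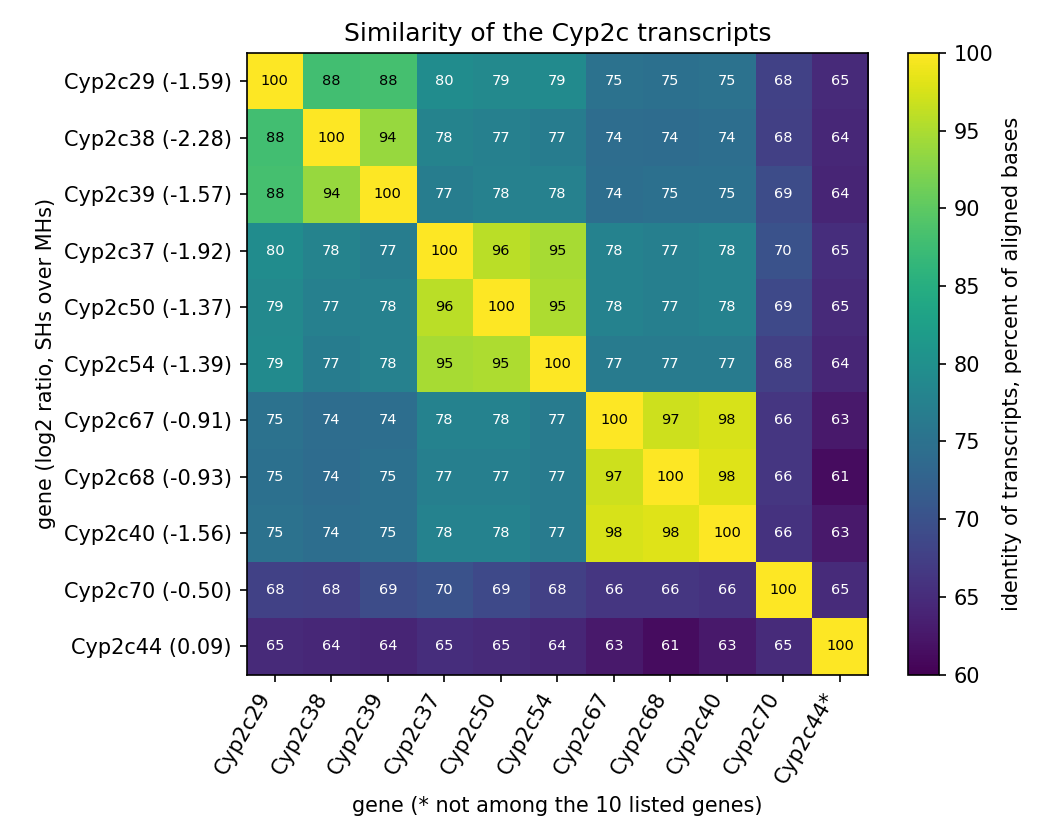
Identity of the longest protein-coding transcripts of the 10 genes and of Cyp2c44, as percent of aligned bases, with the log2 ratio of SHs over MHs beside each name on the vertical axis. The 3 groups of paralogs stand out as bright blocks, and Cyp2c70 and Cyp2c44 lie outside all of them.

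In all, 16979136 reads were counted for MHs and 42356444 for SHs. Levels are given as reads per 1000000 counted reads (RPM), so that 3 reads, taken as the smallest level the depth could show, were 0.177 RPM in MHs and 0.0708 RPM in SHs. Ratios are log2 values of SHs over MHs with 0.5 reads added to each count, and a negative value means a lower level in SHs. Their 95% Clopper-Pearson intervals cover counting error only. They say nothing of the spread between animals or preparations, and the reads carried no molecular identifiers. Hepatocyte identity was checked with 9 marker genes such as Alb and Hnf4a, whose summed level was 82047 RPM in MHs and 86652 RPM in SHs, with single ratios between -0.19 and 0.27.

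The 10 Cyp2c genes together were less abundant in SHs than in MHs, 2.06-fold by their sum. They took 32077 reads in MHs and 38864 in SHs, whose library was the deeper one, which was 1889 RPM against 917.5 RPM. The log2 ratio of the sum was -1.04 (-1.06 to -1.02), so that the level in SHs was 48.6% of that in MHs. Of all counted reads, the share of the 10 genes was 0.189% in MHs (95% interval 0.187% to 0.191%) and 0.0918% in SHs (0.0908% to 0.0927%). In these bulk libraries, fewer cells that carry the transcripts and less of them per cell cannot be told apart.

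Every one of the 10 genes had a lower level in SHs, with an interval wholly under 0. A minimum of 10 reads over both libraries was passed by 15521 genes, all 10 Cyp2c genes included, and among these the interval lay wholly under 0 for 15.5%. A level at least 2-fold lower in SHs, with the interval under 0, was found for 7 of the 10 and for 4.46% of all genes, and a level at least 1.5-fold lower for 9 of the 10 and for 6.20% of all genes. The median log2 ratio was -1.47 over the 10 genes and 0.02 over all genes with at least 10 reads. Among the 9608 genes with at least 200 reads only 0.812% were at least 2-fold lower, and the cause of this smaller share was not tested. Of the 8 Cyp2c genes with that many reads, 5 were.

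Cyp2c29, whose enzyme makes epoxides of arachidonic acid and is induced through CAR and PXR, was counted 8631 times in MHs and 7131 times in SHs, or 508.3 and 168.4 RPM. Its log2 ratio was -1.59 (-1.64 to -1.55), a level 3.02-fold lower in SHs. By number of reads it ranked 270 among all genes in MHs and 695 in SHs. It was the second most abundant of the 10 genes in both libraries and the one that contributed most to the lower sum: without it, the ratio of the remaining 9 was -0.88. Its close relative Cyp2c38, an arachidonic acid epoxygenase, was counted with 82 reads in MHs and 42 in SHs, 4.829 and 0.9916 RPM, and had the lowest ratio of all, -2.28 (-2.86 to -1.73). Cyp2c39, known as a retinoic acid hydroxylase, was barely detected, with 12 reads in MHs and 10 in SHs. Its ratio of -1.57 has an interval from -2.95 to -0.25, so its size is poorly known. As a group these 3 genes had a log2 ratio of -1.60 (-1.64 to -1.55), which is in effect that of Cyp2c29.

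Cyp2c37, which hydroxylates arachidonic acid, gave 2077 reads in the library of MHs and 1370 in that of SHs, 122.3 and 32.34 RPM. This was a level 3.78-fold lower in SHs, its log2 ratio being -1.92 (-2.02 to -1.82), and its rank by reads was 912 in MHs and 3076 in SHs. Cyp2c50, which also oxidises arachidonic acid, had 5645 and 5443 reads, 332.5 and 128.5 RPM, with a ratio of -1.37 (-1.43 to -1.32). For Cyp2c54 the counts were 1843 and 1759, that is 108.5 and 41.53 RPM, with a ratio of -1.39 (-1.48 to -1.29). Cyp2c50 and Cyp2c54 could not be told apart in their ratios, which differed by -0.01 (-0.12 to 0.09, from the counting error of the 4 read counts). Cyp2c37 was lower than its near copies: its log2 ratio minus that of Cyp2c50 was -0.55 (-0.66 to -0.44), and minus that of Cyp2c54 it was -0.53 (-0.67 to -0.40). Shared stretches are frequent in this group, and the part that the assignment of reads to copies plays in this difference was not tested. The sum of the 3 genes, which does not depend on the split among them, was 563.3 RPM in MHs and 202.4 RPM in SHs, a ratio of -1.48 (-1.52 to -1.43).

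Cyp2c67 and Cyp2c68 were lower in SHs by a smaller amount. Cyp2c67 had 1577 and 2094 reads in MHs and SHs, 92.88 and 49.44 RPM, and a log2 ratio of -0.91 (-1.0 to -0.81). Cyp2c68 had 856 and 1121 reads, 50.41 and 26.47 RPM, and a ratio of -0.93 (-1.06 to -0.80). Their ratios differed by 0.02 (-0.14 to 0.18). Cyp2c40, an arachidonic acid hydroxylase that shares most of its sequence with them, was a smaller part of the group, with 211 and 179 reads, 12.43 and 4.226 RPM, and a lower ratio of -1.56 (-1.85 to -1.26). Minus that of Cyp2c67 its ratio was -0.65 (-0.95 to -0.34). Since 89.5% of its 100-base stretches come close to another copy, this difference rests on reads whose assignment is uncertain. Summed with Cyp2c69, the group had 2734 and 3475 reads and a ratio of -0.97 (-1.05 to -0.90).

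Cyp2c70, the bile acid hydroxylase, was the most abundant of the 10 genes and the least different between the libraries. It was counted with 11143 and 19715 reads, respectively, in MHs and SHs, or 656.3 and 465.5 RPM, a level 1.41-fold lower in SHs and a log2 ratio of -0.50 (-0.53 to -0.46). It ranked 211 by reads in MHs and 284 in SHs. The log2 ratio of Cyp2c29 minus that of Cyp2c70 was -1.10 (-1.15 to -1.04). No 100-base stretch of either transcript came within 2 mismatches of another Cyp2c gene, pseudogenes not being compared. Without Cyp2c70, the sum of the other 9 genes was 1233 RPM in MHs and 452.1 RPM in SHs, a ratio of -1.45 (-1.48 to -1.42).

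**Figure D2:**
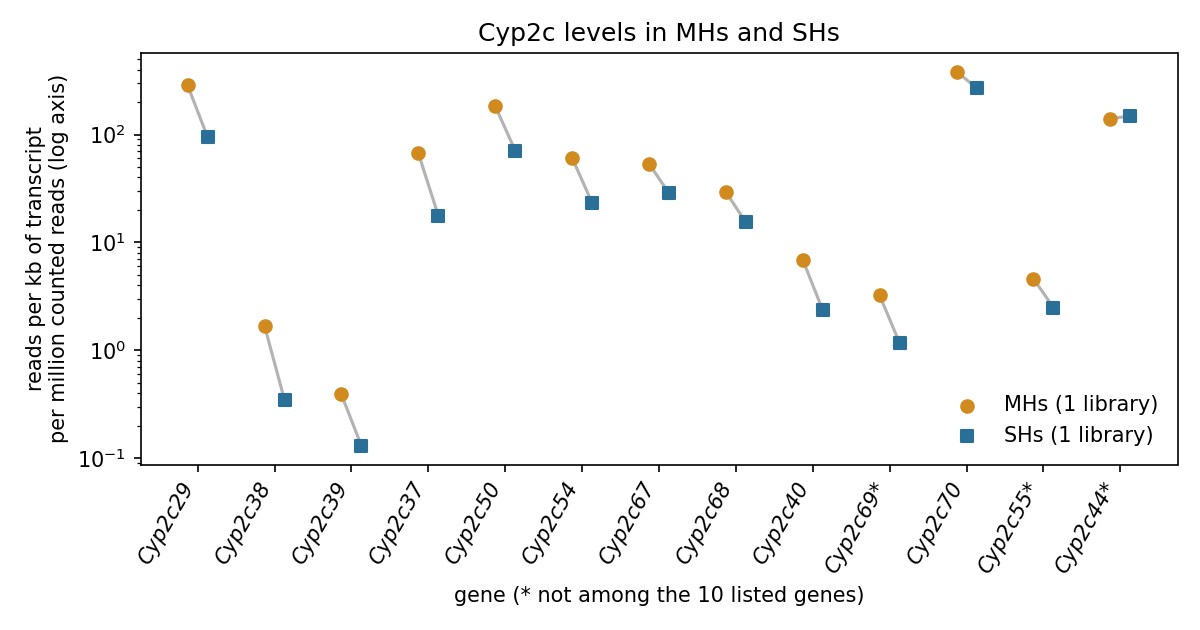
Level of each Cyp2c gene with at least 10 reads in the library of MHs (circles) and of SHs (squares), in reads per kb of transcript per 1000000 counted reads on a log axis. Each of the 10 genes is lower in SHs, from 382.2 to 271.1 for Cyp2c70 and from 285.1 to 94.42 for Cyp2c29, whereas Cyp2c44 is not.

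**Figure D3:**
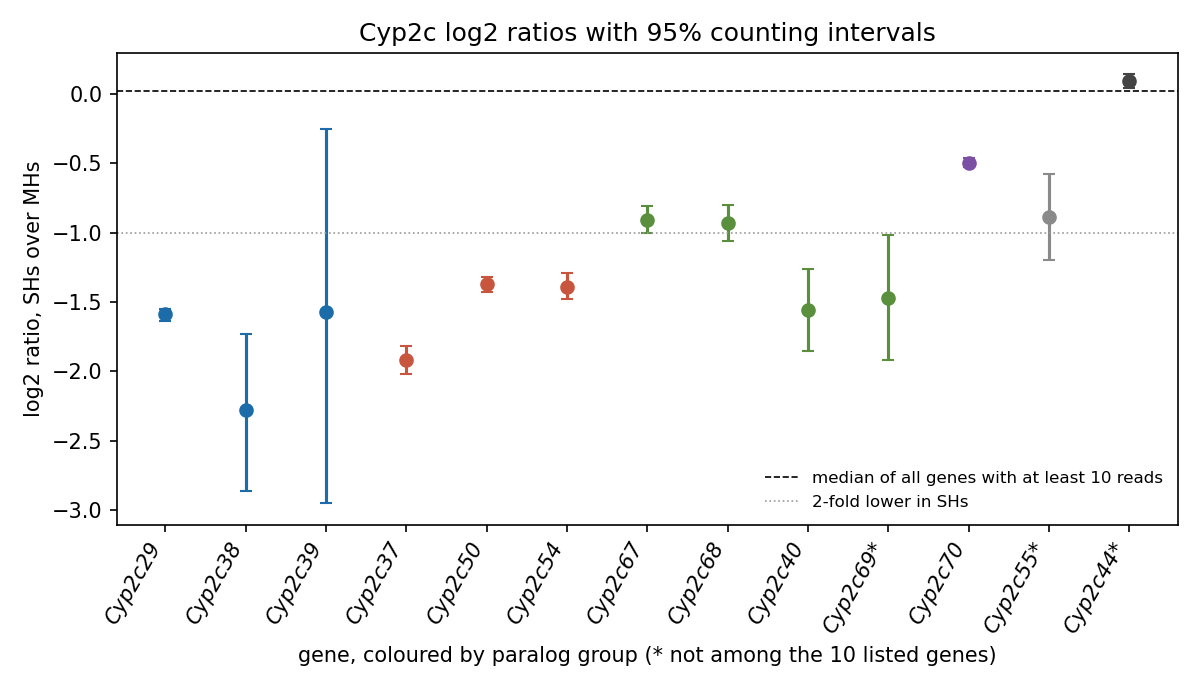
Log2 ratio of SHs over MHs for each gene, with 95% counting intervals and colours for groups of paralogs, the median of all genes (0.02, dashed) and the line of a 2-fold lower level (dotted). Cyp2c70 lies nearest to 0 among the 10 genes, and Cyp2c39 and Cyp2c38 have the widest intervals.

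Ordered from the lowest ratio upwards, the genes were Cyp2c38, Cyp2c37, Cyp2c29, Cyp2c39, Cyp2c40, Cyp2c54, Cyp2c50, Cyp2c68, Cyp2c67 and Cyp2c70. The intervals of neighbours in this order overlapped, except between Cyp2c37 and Cyp2c29, between Cyp2c50 and Cyp2c68 and between Cyp2c67 and Cyp2c70. The groups kept their own order too. The ratio of the group of Cyp2c29 minus that of the group of Cyp2c37 was -0.12 (-0.18 to -0.06). Between the groups of Cyp2c37 and Cyp2c67 the difference was -0.50 (-0.59 to -0.42), and between the group of Cyp2c67 and Cyp2c70 it was -0.48 (-0.56 to -0.40). Beside the promoters, the 4 genes whose window held CAAAGTCCA had ratios from -1.56 to -0.50 with a median of -0.92, and the other 5 with a promoter entry had ratios from -2.28 to -1.37 with a median of -1.59. As close copies share both promoter and reads, these genes are not independent of each other, and this is a description of 9 genes.

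Levels can be compared between genes only per length of transcript. In reads per kb of transcript per 1000000 counted reads (RPKM), the level in MHs was 382.2 for Cyp2c70, 285.1 for Cyp2c29 and 183.5 for Cyp2c50, with 67.07 for Cyp2c37, 60.78 for Cyp2c54, 53.63 for Cyp2c67 and 29.24 for Cyp2c68. The levels in SHs were 271.1 for Cyp2c70, 94.42 for Cyp2c29 and 70.92 for Cyp2c50, followed by 28.54 for Cyp2c67, 23.25 for Cyp2c54, 17.73 for Cyp2c37 and 15.35 for Cyp2c68. The order was the same at the top and at the bottom, where Cyp2c40, Cyp2c38 and Cyp2c39 lay at 6.892, 1.683 and 0.389 RPKM in MHs and at 2.344, 0.3456 and 0.1299 RPKM in SHs. In the middle, the order of 3 genes was turned round, from Cyp2c37, Cyp2c54 and Cyp2c67 in MHs to Cyp2c67, Cyp2c54 and Cyp2c37 in SHs.

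The lower sum thus came with a different make-up. Cyp2c70 took 34.7% of the reads on the 10 genes in MHs (34.2% to 35.3%) and 50.7% in SHs (50.2% to 51.2%). Cyp2c29 took 26.9% (26.4% to 27.4%) and 18.3% (18% to 18.7%). The group of Cyp2c37, Cyp2c50 and Cyp2c54 took 29.8% in MHs and 22.1% in SHs. In contrast, the group of Cyp2c67, Cyp2c68 and Cyp2c40 held 8.24% (7.94% to 8.55%) in MHs and 8.73% (8.45% to 9.02%) in SHs. This depends on the genes summed. Of the reads on all Cyp2c genes, the group with Cyp2c69 held 7.41% (7.15% to 7.69%) in MHs and 6.78% (6.57% to 7.01%) in SHs. In SHs, therefore, the reads of Cyp2c70 alone outnumbered those of the other 9 genes together. These shares do not depend on the scaling of the libraries.

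**Figure D4:**
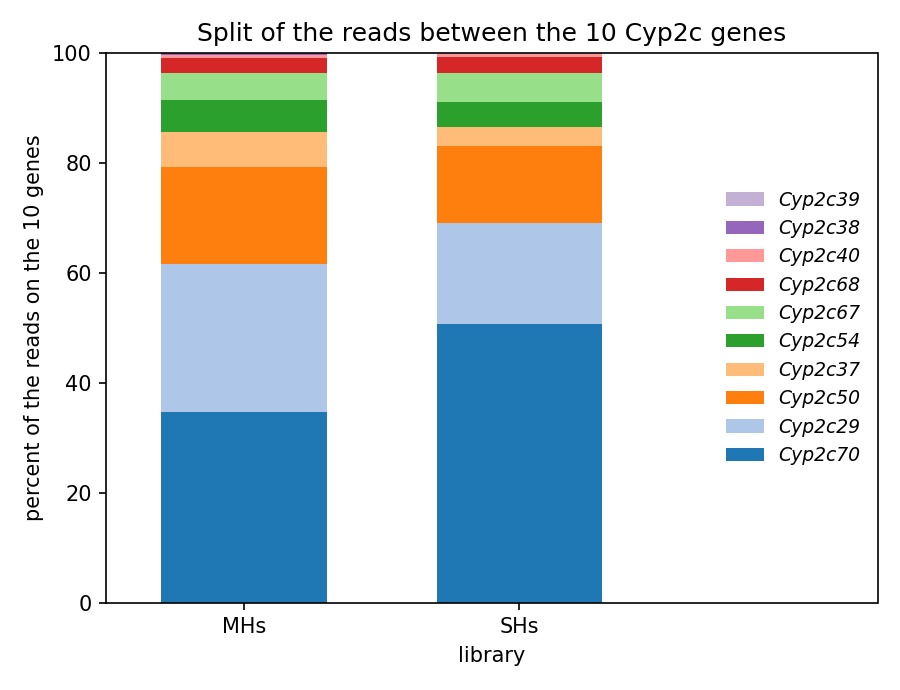
Share of each of the 10 genes in the reads counted on them, in percent, for the library of MHs and the library of SHs. The part of Cyp2c70 at the bottom is 34.7% in MHs and 50.7% in SHs, and the part of Cyp2c29 above it is 26.9% and 18.3%.

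The count tables held 5 further Cyp2c genes. Cyp2c44, an arachidonic acid epoxygenase gene that lies outside the cluster (chr19:44005022-44029208, named Cyp2c23 in the annotation), was at 4555 reads or 268.3 RPM in MHs and 12063 reads or 284.8 RPM in SHs. Its log2 ratio was 0.09 (0.04 to 0.14), on the other side of 0 from all 10 genes, as was the interval of 16.8% of all genes. The ratio of Cyp2c44 minus that of Cyp2c70, the nearest of the 10, was 0.58 (0.52 to 0.64). Within the cluster, Cyp2c55 had 156 and 210 reads and a ratio of -0.89 (-1.20 to -0.58). Cyp2c69 had 90 and 81 reads and a ratio of -1.47 (-1.92 to -1.02). No read of Cyp2c65 was counted in MHs and 1 in SHs, and Cyp2c66 had 0 in both, so both were under the limit of 3 reads. Thus the 12 Cyp2c genes of the cluster with at least 10 reads were all lower in SHs and the one outside it was not.

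The remaining P450 genes, as a sum, were nearer to equal levels than the 10 Cyp2c genes. All 84 Cyp genes outside Cyp2c, pseudogenes left out, summed to 16210 RPM in MHs and 12636 RPM in SHs, a log2 ratio of -0.36 (-0.37 to -0.35). Of their 57 members with at least 10 reads, 35 had an interval under 0, against 15.5% of all genes. At least 2-fold lower were 12 of the 57, against 4.46% of all genes. The median ratio of the 57 was -0.32. The Cyp3a genes together had a ratio of -0.40 (-0.41 to -0.39) and the Cyp2d genes one of -0.21 (-0.22 to -0.19). Some single P450 genes outside Cyp2c were as low as the Cyp2c genes or lower. Among the 12 were Cyp2a5 (-2.43), Cyp2e1 (-1.89) and Cyp1a2 (-1.37), while 5 of the 57 had intervals above 0. Compared with the reads on all Cyp genes instead of all counted reads, the ratio of the 10 Cyp2c genes was -0.63.

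Transcripts of P450 oxidoreductase, of cytochrome b5 proteins and of related genes were at nearer levels. The 5 genes listed were Por, Cyb5a, Cyb5b, Cyb5r3 and Pgrmc1. Of these, 3 had intervals under 0, 1 above 0 and 1 including 0, and none differed 1.5-fold. Over all genes, 15.5% had intervals under 0 and 16.8% above 0. Among genes with at least 1000 reads, 21.1% had intervals under 0. Pgrmc1, at -0.08 (-0.11 to -0.05), was among the 3. Por, which encodes P450 oxidoreductase, had 176.6 RPM in MHs and 135.4 RPM in SHs, a log2 ratio of -0.38 (-0.45 to -0.32). Cyb5a, the gene of cytochrome b5, had a ratio of -0.30 (-0.34 to -0.26). The ratio of Cyb5r3, which encodes cytochrome b5 reductase, was 0.31 (0.26 to 0.36).

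Most other genes of arachidonic acid metabolism differed little. Of 16 listed genes, 11 had at least 10 reads, with a median ratio of -0.10. Intervals lay under 0 for 5 and above 0 for 3 of them, against 15.5% and 16.8% of all genes. The epoxygenase gene Cyp2j5 had 512 RPM in MHs and 474.9 RPM in SHs, a ratio of -0.11 (-0.14 to -0.07). Ephx2, which encodes the soluble epoxide hydrolase that breaks down the epoxides, was at 623.4 and 679.8 RPM, a ratio of 0.13 (0.09 to 0.16). Fads1, a desaturase gene of arachidonic acid synthesis, had a ratio of 0.14 (0.08 to 0.19). The cyclooxygenase gene Ptgs1 was the exception, with 16 reads in MHs and 0 in SHs, a level at least 13.3-fold lower.

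Since Cyp2c70 acts on bile acids, the genes of bile acid synthesis were set beside it. Of 8 genes, 6 had intervals under 0 and 1 above 0, against 15.5% and 16.8% of all genes. The median ratio was -0.31. Cyp7a1, the rate-limiting enzyme of the classical pathway, had 453 and 296 reads in MHs and SHs, a ratio of -1.93 (-2.15 to -1.72). It was the only one of the 8 at least 2-fold lower. Cyp27a1 and Hsd3b7 had ratios of -0.58 (-0.62 to -0.53) and -0.49 (-0.53 to -0.45), close to that of Cyp2c70. Cyp8b1, which directs synthesis towards cholic acid, had a ratio of -0.20 (-0.25 to -0.15), and the conjugating enzyme gene Baat one of 0.01 (-0.04 to 0.07).

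Among 22 genes of transcription factors known to act on Cyp2c genes or on hepatocyte genes at large, 21 had at least 10 reads. Their median ratio was 0.01, with 5 intervals under 0, 7 above 0 and 9 including 0. Over all genes, 15.5% of intervals lay under 0 and 16.8% above it. Nr1i3, which encodes CAR, was the only one at least 2-fold lower in SHs: its reads numbered 679 in MHs and 645 in SHs, which was 39.99 and 15.23 RPM. Its log2 ratio was -1.39 (-1.55 to -1.24). In contrast, Nr1i2, which encodes PXR, was at 52.54 RPM in MHs and 59.73 RPM in SHs, a ratio of 0.18 (0.07 to 0.30). Rxra, the partner of both receptors, had a ratio of 0.19 (0.14 to 0.23). Hnf4a had 633.3 RPM in MHs and 649 RPM in SHs, a ratio of 0.04 (0.00 to 0.07). Cebpa had a ratio of 0.21 (0.17 to 0.24) and Cebpb one of -0.32 (-0.40 to -0.24).

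Other genes known to respond to CAR or PXR did not share one direction. Of 10 such genes, 6 had intervals under 0, 1 above 0 and 3 including 0, with a median ratio of -0.19. The shares over all genes were 15.5% under 0 and 16.8% above 0. Cyp2a5 had 1254 and 582 reads, a ratio of -2.43 (-2.57 to -2.28). Cyp2b10, the gene most widely used as a readout of CAR, had 117 and 320 reads, 6.891 and 7.555 RPM, and an interval from -0.18 to 0.45 that included 0. Cyp3a11, the main PXR target, had a ratio of -0.46 (-0.48 to -0.45). Gadd45b, which is also induced by stress, was higher in SHs, with 32 and 293 reads and a ratio of 1.86 (1.35 to 2.45).

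Markers of the zones of the liver lobule differed between the libraries along with the Cyp2c genes. All 14 pericentral markers, among them Glul and Cyp2e1, were at least 2-fold lower in SHs, with ratios from -4.23 to -1.08 and a median of -1.82, and their summed level was 3281 RPM in MHs and 922.2 RPM in SHs. None of the 14 was at 0 in either library. Of the 10 Cyp2c genes, 7 had ratios within this range, and Cyp2c68, Cyp2c67 and Cyp2c70 lay above it. These 7 are the same genes that were at least 2-fold lower, as were 4.46% of all genes. The ends of the range were set by single markers, Slc1a2 and Axin2. The 13 periportal markers had ratios from 0.02 to 1.29 and a median of 0.32. Their intervals lay above 0, as did those of 16.8% of all genes. However, the lowest ratio, that of Cps1, turned below 0 under TMM and DESeq2 scaling. Their summed level was 17581 RPM in MHs and 20928 RPM in SHs. Both marker lists were chosen with earlier results of these data known. The study had reported Glul, Lgr5, Axin2, Cyp2e1, Cyp1a2 and Cldn2 lower and Cdh1 higher in SHs. From its RNA sequencing it had also described lower P450 expression in SHs. Its qPCR on several sets of cells gave lower Cyp3a11, Cyp1a2 and Cyp2e1. The shared direction was therefore partly known beforehand. The part that the zones from which the cells came play in the Cyp2c ratios was not tested.

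Most markers of stellate cells, macrophages and the endothelium had lower levels in SHs too. In RPM, which does not allow for transcript length, the sum of each list in MHs was below Cyp2c70, Cyp2c29, Cyp2c50, Cyp2c37 and Cyp2c54. The endothelial sum was above the other 5 genes in RPM, but holds long transcripts such as Ptprb (11911 bases, against 1732 for Cyp2c67). This compares reads and not transcript levels, and each sum depends on which markers were listed. It does not give the share of these cells in the library. The summed level of 10 endothelial markers was 106.7 RPM in MHs and 4.769 RPM in SHs. All 10 were at least 2-fold lower, against 4.46% of all genes. Of 11 macrophage markers in the tables, 10 had at least 10 reads and 9 were at least 2-fold lower, with a sum of 22.91 RPM in MHs and 1.133 RPM in SHs. The sum of 10 stellate cell markers was 21.97 and 2.29 RPM, with all 8 that had at least 10 reads at least 2-fold lower. The sum of 8 cholangiocyte markers was 21.44 and 24.41 RPM, and their defining genes were at or near 0: 6 reads of Epcam were found in MHs and 1 in SHs, and 1 of Krt19 in each. CD31 and CD45 were part of the sort of SHs, and the part of these cells in the Cyp2c ratios was not tested.

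Most genes beside the cluster did not share the lower levels. Within 500 kb on either side lay 8 protein-coding genes with at least 10 reads. Their median ratio was 0.14, and 6 had intervals that included 0, as had 10516 of all 15521 genes with at least 10 reads. Plce1, a phospholipase gene, had 245 and 664 reads in MHs and SHs, a ratio of 0.12 (-0.09 to 0.34). Pdlim1, on the side of Cyp2c70, had 293 and 848 reads and a ratio of 0.21 (0.02 to 0.41). The one neighbour with an interval under 0 was Aldh18a1, an enzyme gene of proline synthesis, with only 8 and 4 reads in the libraries of MHs and SHs.

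**Figure D5:**
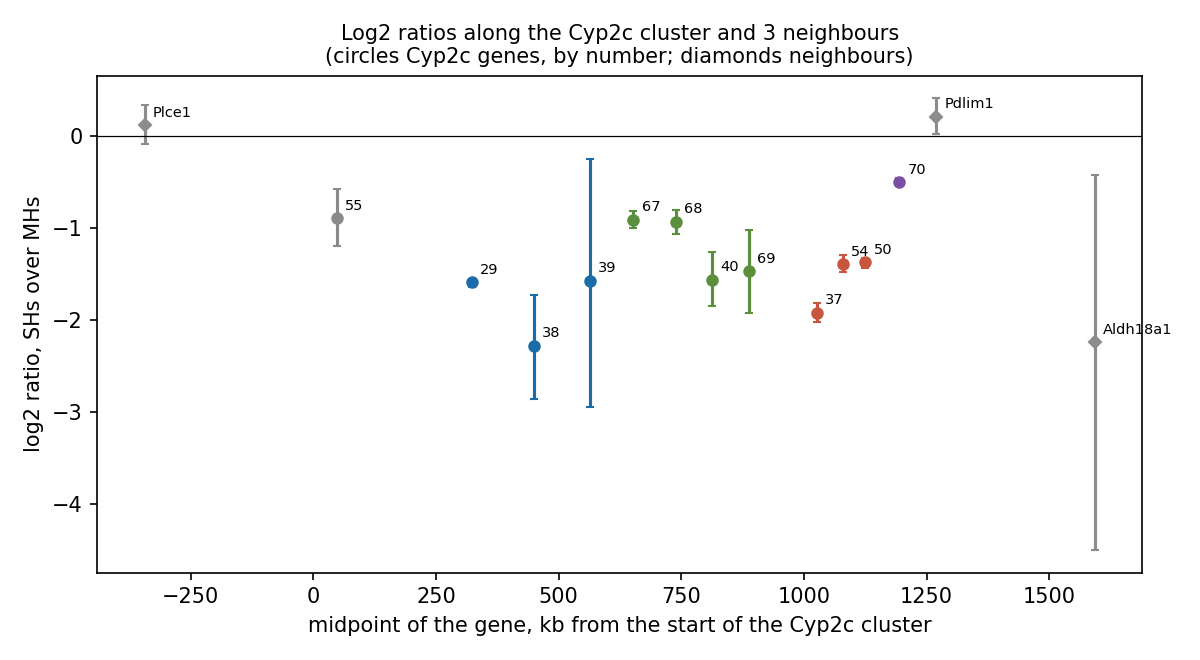
Log2 ratio of SHs over MHs with 95% counting intervals against the midpoint of each gene, in kb from the start of the Cyp2c cluster, for the Cyp2c genes (circles, by number, coloured by group of paralogs) and for the neighbours Plce1, Pdlim1 and Aldh18a1 (diamonds). The circles all lie under 0, Plce1 and Pdlim1 lie at 0.12 and 0.21, and Aldh18a1, with 12 reads in all, has the widest interval.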

How the data were processed

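Poly(A) RNA from 1 sample of MHs and 1 of SHs was sequenced (Ion Proton). The authors deposited whole read counts per gene symbol, without normalization. Their methods describe alignment to mm10 in CLC Genomics Workbench and RPKM values. The program and annotation behind the counts, and its rule for reads shared by paralogs or overlapping genes, are not given in the sources used here. The library of SHs had more reads (42356444 against 16979136), so a low level was easier to detect in SHs.

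Log2 ratios (0.5 added reads) and intervals were computed on all 43280 genes with scipy 1.17.1, numpy 2.4.6 and pandas 2.3.3 under Python 3.11.15, and tested on simulated counts. Medians and counts took genes with at least 10 reads. Intervals of differences between ratios used the normal approximation of the 4 counts. Transcripts (GENCODE M21, longest protein-coding) were aligned with Biopython 1.88, and 39469 of the symbols were found. Scaling alternatives used edgeR 4.0.16 and DESeq2 1.42.0 in R 4.3.3. The genes named were the 10 members, the other Cyp2c genes, members of the lists, neighbours within 500 kb, and the 5 genes with at least 1000 reads nearest to the ratio of the sum. Members and lists were chosen with earlier results of these data known. No p-value was computed. Values of 1 neighbour are not reported here.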

Additional observations from a re-analysis of the deposited data

How the results depend on the processing

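The log2 ratio of the sum of the 10 Cyp2c genes kept its direction under every alternative tried. It was -1.06 with TMM, -1.06 with DESeq2 size factors, -1.01 when the 10 genes richest in reads were left out of the total and -1.02 with the total over protein-coding genes. With all 15 Cyp2c genes in the sum it was -0.84, without Cyp2c70, the gene with the most reads, -1.45, and as a share of the reads on all Cyp genes -0.63. Without Cyp2c29, an alternative chosen after seeing the data, it was -0.88. With all Cyp2c genes in the sum, Cyp2c29 accounted for 23.4% in MHs and 13.9% in SHs, and Cyp2c70 for 30.2% and 38.5%. The ratios of all 10 single genes stayed within their counting intervals under the 4 scalings and with 2 added reads. The count of genes at least 2-fold lower stayed at 7 of 10 under the 4 scalings, was 5 of 8 with at least 200 reads and 9 of 10 at 1.5-fold. Over all genes, 693 were at least 2-fold lower and 310 at least 2-fold higher, which became 78 and 34 with at least 200 reads. The genes at least 2-fold lower were then 0.812% of 9608 in place of 4.46% of 15521, and the cause was not tested. At 1.5-fold, 543 were higher. Cps1 had a log2 ratio of -0.0024 with TMM and -0.0021 with DESeq2 size factors, in place of 0.02. No paired analysis was possible because each condition had 1 library. Leaving out a replicate was not possible for the same reason. The depth limits Cyp2c39 most, with 12 and 10 reads.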

Other observations

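The genes with at least 1000 reads whose log2 ratio was nearest to that of the 10 Cyp2c genes together (-1.04) were Mup19 (-1.04), Mup13 (-1.03), Mup11 (-1.07), Mup2 (-1.0) and Mup18 (-1.0). All 5 encode major urinary proteins, which hepatocytes secrete. They belong to a family of near-identical copies, so reads may be split between them as between the Cyp2c paralogs. The likeness is of 1 ratio between 2 libraries.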
